A study of Mus musculus with 6 samples.

Results

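Amino acid transporter genes were taken by symbol, as the genes named Slc1a, Slc3a, Slc6a, Slc7a, Slc36a, Slc38a or Slc43a followed by a number. 61 of the 24453 gene symbols met this rule, and it used no measured value. Expression was measured by RNA sequencing in interfollicular epidermis of mice at postnatal day 0. Back-skin cells were sorted for EpCAM, Sca1 and a high level of α6-integrin. 3 libraries carried the genotype label Ring1a-/- Ring1b-/- and 3 the label Control. Ring1a and Ring1b are the E3 ubiquitin ligases of Polycomb repressive complex 1, which marks histone H2A and keeps developmental genes silent, and the series addresses its role in skin epithelium development. The labels give no strain, sex or Cre driver, no control alleles, and do not say whether each library is a separate animal. The p-values therefore reflect only how far these libraries spread, which may be technical in part. K1, K2 and K3 stand for the knockout-labelled replicates 1 to 3, and C1, C2 and C3 for the control-labelled ones.

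Cells take up amino acids through several solute carrier (SLC) families. Slc1 holds the sodium-driven glutamate transporters and the neutral exchangers ASCT1 and ASCT2. Slc6 holds carriers for neurotransmitters, taurine, creatine and neutral amino acids, so some of its members carry no amino acid. Most Slc7 proteins are light chains that reach the membrane bound to an Slc3 heavy chain, and the others are cationic carriers that need none. Slc38 carriers import glutamine and other small neutral amino acids with sodium, Slc36 carriers move them with protons, often out of lysosomes, and Slc43 facilitates large neutral ones, except Slc43a3, a nucleobase carrier. Import of glutamine and leucine feeds the growth kinase mTORC1, and import of cystine feeds glutathione.

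The knockout-labelled epidermis differed in several amino acid carriers. 8 members rose: the light chains Slc7a10, Slc7a11, Slc7a5 and Slc7a6, the glutamine importer Slc38a1, the neutral exchanger Slc1a5, the vesicular carrier Slc6a17 and the taurine carrier Slc6a6. 1 fell, the glutamate transporter Slc1a3. The changes ranged from an almost silent gene that became well counted (Slc7a10) to a rise of 0.69 on the log2 scale in an abundant one (Slc6a6). The heavy chain Slc3a2 and the most abundant glutamine carrier, Slc38a2, did not pass. A gene passed at a Benjamini-Hochberg adjusted p under 0.05 in edgeR's quasi-likelihood test over all genes.

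Of the 61 members, 37 had enough counts to be tested, 18 were counted but fell below the count filter (at most 65 counts over the 6 libraries) and 6 had no count. 21.6% of the tested members were called higher and 2.70% lower, against 7.17% higher and 2.98% lower of all 14890 genes tested. The median log2 fold change was 0.57 over the tested members and 0.00 over all tested genes. A member silent in 1 group was tested only if it was counted in the other, so these figures hold for the tested members and are a description. The levels of the groups did not overlap in 19 tested members, 14 higher and 5 lower. Among all tested genes 32.4% did not overlap, 17.6% higher and 14.8% lower. DESeq2 called 12 members higher and 4 lower, where it called 11.0% of all its tested genes higher and 6.02% lower. 13 members had an unadjusted p under 0.05 upward and 5 downward. The share of all tested genes at this unadjusted threshold is not given here, so these counts alone do not show an excess among members.

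**Figure D1:**
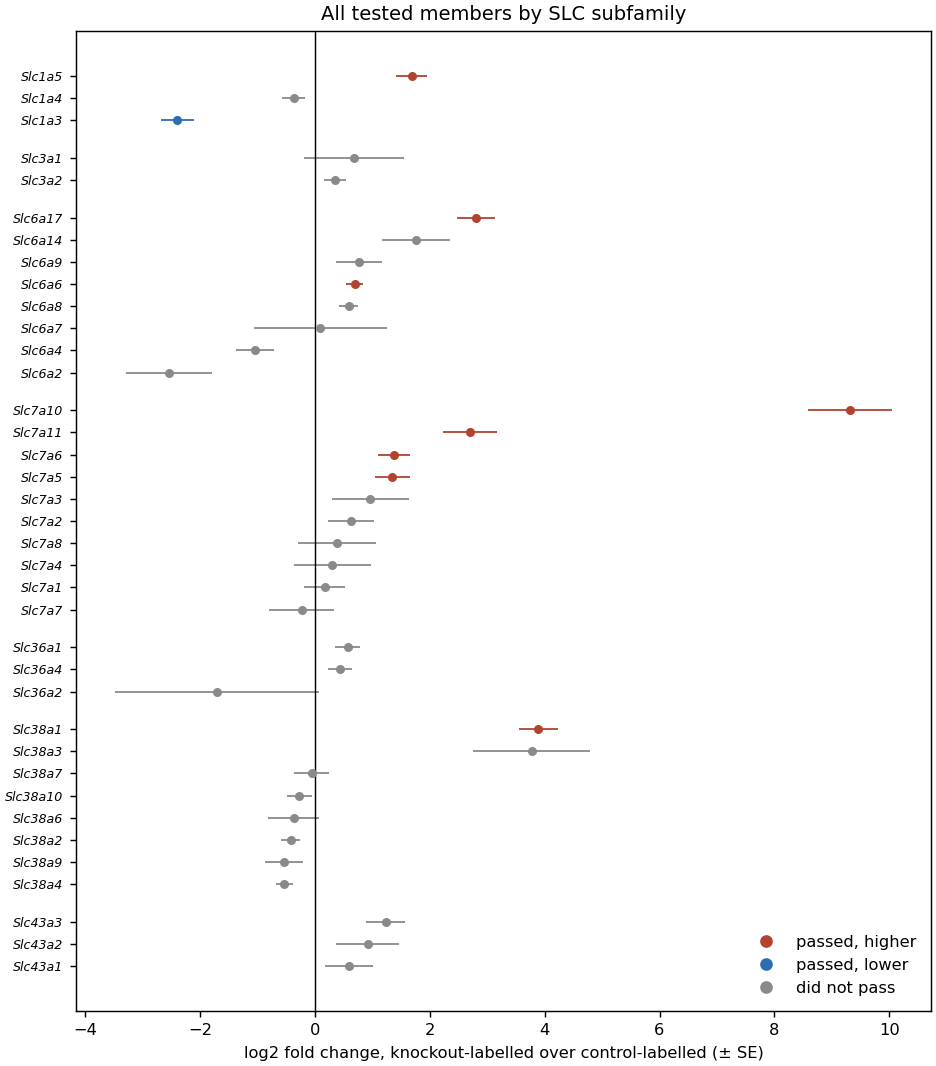
Log2 fold change of knockout-labelled over control-labelled libraries for the 37 tested members, by SLC subfamily, with the model's SE as bars (n = 3 libraries per group). The 8 members that passed upward are red and Slc1a3, the 1 that passed downward, is blue; the position of Slc7a10 is a fitted value that depends on the prior count, since its control-labelled libraries held 1 count.

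Not every library followed its label at the targeted genes. Ring1, the gene of Ring1a, had 1.66, 5.20 and 14.2 CPM (counts scaled to a common depth with TMM factors) in K1, K2 and K3, against 30.9, 17.1 and 3.90 CPM in C1, C2 and C3, so K3 stood above C3 and the replicate 3 pair went against its labels. Rnf2, the gene of Ring1b, had 55.4, 64.1 and 59.0 CPM in the knockout-labelled and 43.2, 63.2 and 47.5 CPM in the control-labelled libraries, and counts outside a deleted part check no label. Xist, expressed from the inactive X chromosome of females, had 6133, 4736 and 4.48 CPM in K1, K2 and K3, against 10.5, 6.91 and 1757 CPM in C1, C2 and C3. Y-linked Ddx3y had 0.0346, 0.206 and 76.2 CPM in K1, K2 and K3, against 91.2, 102 and 59.7 CPM in C1, C2 and C3, so C3 held both transcripts. The part of these differences in the results below was tested only through the alternatives of the closing section. Depth was 18951665 to 31187270 counts per library. Where a gene was not counted, the limit is 3 counts, which is 0.0975 to 0.154 CPM (counting error only). The first principal component, with 58.0% of the variance, split the libraries by label. The second, with 19.5%, set K1 and C1 apart. Basal markers were abundant in every library, at a summed 27615 to 31377 CPM in the knockout-labelled and 32233 to 46949 CPM in the control-labelled ones. Of 9 basal markers 2 fell, Trp63 and Col17a1, and of 9 tested hair follicle markers 3 fell (Krt25, Krt27 and Krt71) and 1 rose (Krt79). Of 7 suprabasal markers 1 rose, Krtdap, at 958 ± 130.2 CPM in knockout-labelled and 492 ± 109 CPM in control-labelled libraries (SD, n = 3; edgeR adjusted p = 0.0246). Among these marker calls, those of Krt25 and Krt79 held without any 1 library and the others were lost without each of 3 or 4 single libraries.

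The promoters of members that moved are shown first, since they differed widely in CpG content, the sequence feature that Polycomb complexes are known to be recruited to in mammals. RefSeq starts on GRCm38.p6 matched 43 of the 61 members and 5 of the 9 that changed. Each stretch is the 250 bases before a start, 5′ to 3′ on the gene's strand, with CpG in capitals. Over all 32851 starts in the table the median was 6 CpG in 250 bases. For each gene's most CpG-rich start the median was 12 over the members, with a range of 1 to 38, and 6 over all genes.
Slc7a10, chr7:35186135-35186384, plus strand, 14 CpG: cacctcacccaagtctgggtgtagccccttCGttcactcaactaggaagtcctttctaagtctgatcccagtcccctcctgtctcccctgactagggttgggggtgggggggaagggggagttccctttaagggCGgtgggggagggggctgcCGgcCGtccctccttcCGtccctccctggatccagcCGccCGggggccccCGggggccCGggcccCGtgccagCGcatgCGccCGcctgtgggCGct
Slc6a17, chr3:107518019-107518268, minus strand, the start farther upstream, 18 CpG: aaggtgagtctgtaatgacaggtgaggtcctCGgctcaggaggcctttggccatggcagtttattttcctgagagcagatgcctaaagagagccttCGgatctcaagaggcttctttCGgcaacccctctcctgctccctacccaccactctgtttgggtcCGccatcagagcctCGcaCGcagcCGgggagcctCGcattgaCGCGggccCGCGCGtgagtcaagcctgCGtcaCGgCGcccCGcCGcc
Slc1a3, chr15:8710808-8711057, minus strand, 2 CpG: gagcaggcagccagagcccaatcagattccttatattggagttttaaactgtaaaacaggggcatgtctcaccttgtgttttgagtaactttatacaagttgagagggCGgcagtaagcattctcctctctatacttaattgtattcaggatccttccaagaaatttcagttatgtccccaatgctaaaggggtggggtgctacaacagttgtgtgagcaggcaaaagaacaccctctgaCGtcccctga
The first 2 belong to genes that rose and the last to the gene that fell. The other start of Slc6a17 had 2 CpG, as few as Slc1a3. Slc7a6, which also rose, had 30 and 38 CpG before its 2 starts. Slc7a11 rose with 2 CpG, so a CpG-rich promoter was not shared by all members that rose.
In Slc7a11 capitals mark instead the letters TGATGNAA, the core of the element that ATF4 and C/EBP factors bind in genes of the amino acid response, found on either strand.
Slc7a11, chr3:50443614-50443863, minus strand: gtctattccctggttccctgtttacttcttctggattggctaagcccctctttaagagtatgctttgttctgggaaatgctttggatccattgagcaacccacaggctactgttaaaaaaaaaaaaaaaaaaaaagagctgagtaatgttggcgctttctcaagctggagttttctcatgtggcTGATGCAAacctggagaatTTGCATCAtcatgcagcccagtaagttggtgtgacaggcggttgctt
It held this core once on each strand, at positions 185 and 204 of the stretch counted from its first base. TGATGNAA was present before at least 1 start in 3 of the 43 members (Slc7a11, Slc7a7 and Slc6a21), or 6.98%, against 3.91% of all 27025 genes. Per start, it was present in 3.45% of all starts. TGACNNNGC, the core of the antioxidant response element, was present on either strand before at least 1 start in 8 of the 43 members, or 18.6%, against 11.5% of all genes, and in 10.2% of all starts. A match is a description of these letters and shows no binding.

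Of the 9 called members, the light chain Slc7a10 had the widest change. Slc7a10 (Asc-1; chromosome 7, 35186385 to 35201114, GRCm38) exchanges small neutral amino acids such as D-serine and glycine and is known from brain and adipocytes. It had 363, 177 and 359 counts in K1, K2 and K3 and 1, 0 and 0 counts in C1, C2 and C3. All 3 knockout-labelled libraries, at 11.1 ± 1.79 CPM (SD, n = 3), were thus far above libraries that were next to silent. The ratio of the depth-scaled counts was 895 with a 95% interval of 160.3 to 35405 for counting alone (edgeR adjusted p = 0.000461), and the call held without any 1 library. The last 1088 bases of the gene overlap Lrp3, on the other strand. Lrp3 also rose, with 19.1, 14.1 and 17.9 CPM in K1, K2 and K3 against 0.788, 5.77 and 0.889 CPM in C1, C2 and C3 (edgeR adjusted p = 0.0452). No source used here states whether counting used strand, and without strand, reads from the shared stretch cannot be told apart. C2 had the most Lrp3 of the control-labelled libraries, yet less than any knockout-labelled one, and 0 counts of Slc7a10. The part of Lrp3 reads in the counts of Slc7a10 was not tested.

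Slc7a11 (xCT; chromosome 3, 49892526 to 50443614) exchanges glutamate for cystine and so supplies glutathione synthesis. It had 27.2, 23.9 and 19.4 CPM in K1, K2 and K3, against 2.40, 6.51 and 2.02 CPM in C1, C2 and C3. Every knockout-labelled library was above every control-labelled one, among which C2 was highest. The log2 fold change was 2.70 ± 0.46 (SE, n = 3 per group; edgeR adjusted p = 0.00853), and the call held without any 1 library. Melanocytes also express Slc7a11, and their markers were measured beside it. Of 8 melanocyte markers 6 were tested and edgeR called 0, with 3 higher at an unadjusted p under 0.05 (Dct, Tyrp1 and Kit). The share of all tested genes at that unadjusted threshold is not given here. DESeq2 called 2 higher and limma-voom 0. The summed level of the 8 was 19.8 to 34.1 CPM in the knockout-labelled and 14.6 to 19.1 CPM in the control-labelled libraries. Their part in the rise was not tested.

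Slc7a5 (LAT1; chromosome 8, 121881150 to 121907694) exchanges large neutral amino acids such as leucine. It had 443, 197 and 217 CPM in K1, K2 and K3, against 129.7, 111 and 96.3 CPM in C1, C2 and C3. The groups did not overlap and K1 stood far above the other libraries. The log2 fold change was 1.35 ± 0.31 (edgeR adjusted p = 0.0289). Slc7a6 (y+LAT2), which exchanges arginine for glutamine, had 33.8, 26.1 and 19.8 CPM in K1, K2 and K3, against 8.52, 12.1 and 10.3 CPM in C1, C2 and C3. Its log2 fold change was 1.37 ± 0.28 (edgeR adjusted p = 0.0166). Both calls rested on single libraries. That of Slc7a5 was lost without C1, C2 or C3 (edgeR adjusted p = 0.0621 to 0.109) and that of Slc7a6 without C3 or K2 (0.0601 to 0.0658).

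The shared heavy chain did not pass the test. Slc3a2, the heavy chain of CD98, had 162, 110.4 and 135 CPM in K1, K2 and K3, against 119.6, 99.4 and 100.2 CPM in C1, C2 and C3. The groups overlapped, and the log2 fold change was 0.35 ± 0.19 (edgeR adjusted p = 0.311). Per kilobase of the longest annotated transcript, the level of Slc7a5 relative to Slc3a2 was 2.19, 1.43 and 1.29 in K1, K2 and K3, against 0.868, 0.891 and 0.769 in C1, C2 and C3. Slc7a5 was thus above Slc3a2 in each knockout-labelled library and below it in each control-labelled one, as a description with no test. Slc3a1, the heavy chain of the kidney and gut cystine carrier, was close to silent at 0.277, 0.927 and 0.422 CPM in the knockout-labelled and 0.525, 0.306 and 0.171 CPM in the control-labelled libraries (edgeR adjusted p = 0.701). Its light-chain partner Slc7a9 had 0, 0 and 9 counts in K1, K2 and K3 and 0, 0 and 1 in C1, C2 and C3.

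**Figure D2:**
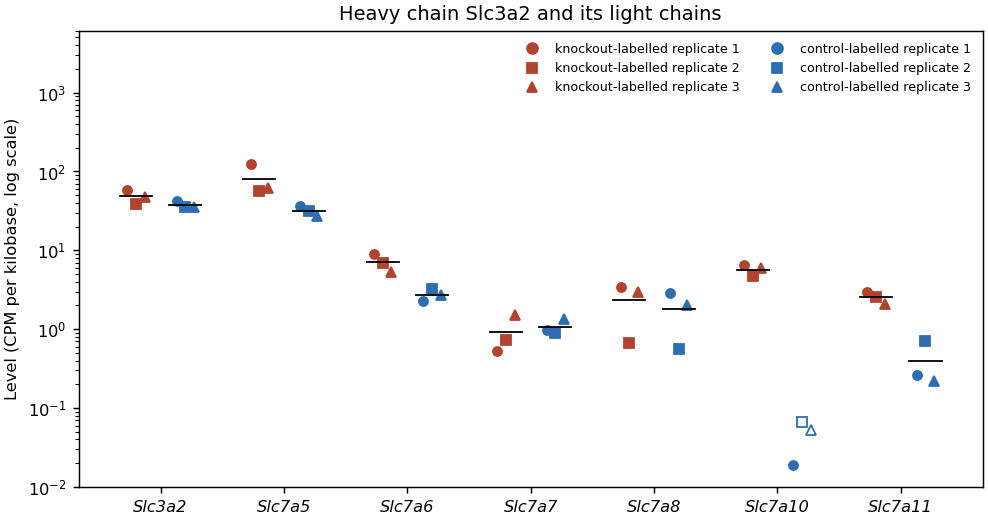
Level of the heavy chain Slc3a2 and of 6 Slc7 light chains in each library, in CPM per kilobase of the longest annotated transcript on a log scale, with the mean as a line; open symbols stand for 0 counts and are drawn at the level of 3 counts. Slc7a5, Slc7a6, Slc7a10 and Slc7a11 lie higher in all knockout-labelled than in all control-labelled libraries, while Slc3a2, Slc7a7 and Slc7a8 overlap.

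The other Slc7 members did not pass. Slc7a7 and Slc7a8, the other light chains of this heavy chain that were tested, had log2 fold changes of -0.23 ± 0.57 and 0.38 ± 0.69 (edgeR adjusted p = 0.854 and 0.796). Slc7a8 (LAT2) had 14.0, 2.73 and 12.3 CPM in K1, K2 and K3 and 11.7, 2.27 and 8.31 CPM in C1, C2 and C3, so the lowest library of each group was replicate 2. Slc7a1, the main carrier of arginine and lysine, had 736, 364 and 239 CPM in K1, K2 and K3, against 409, 386 and 399 CPM in C1, C2 and C3. K1 was above and K3 below all control-labelled libraries, and the log2 fold change of 0.17 ± 0.36 (edgeR adjusted p = 0.829) became -0.40 without K1. The cationic carriers Slc7a2 and Slc7a3 and the orphan Slc7a4 had log2 fold changes of 0.62, 0.96 and 0.30 (edgeR adjusted p = 0.395 to 0.837). Slc7a2 was called higher without C1 (edgeR adjusted p = 0.0234) and with replicates 2 and 3 only. Slc7a12, Slc7a13 and Slc7a14 had no count, and Slc7a15 had 13 in all.

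Among the Slc38 carriers, Slc38a1 rose while its neighbours on the chromosome did not pass in the main edgeR fit. Slc38a1, Slc38a2 and Slc38a4 lie within 484.5 kb of chromosome 15 (96571418 to 97055956), all on the minus strand. Slc38a1 (SNAT1), a glutamine importer known from neurons and growing cells, had 138, 98.8 and 78.5 CPM in K1, K2 and K3, against 9.34, 4.50 and 7.46 CPM in C1, C2 and C3. Every knockout-labelled library was above every control-labelled one, by a log2 fold change of 3.89 ± 0.34 (SE, n = 3 per group; edgeR adjusted p = 0.000634), and the call held without any 1 library.

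Slc38a2 (SNAT2), which cells are known to raise when starved of amino acids, had the highest mean level per kilobase of transcript in both groups. This mean was 131 ± 11.9 CPM per kilobase in knockout-labelled and 175 ± 15.3 CPM per kilobase in control-labelled libraries (SD, n = 3). In the knockout-labelled libraries Slc6a6 was close to it, at 129 ± 3.38 CPM per kilobase. In CPM Slc38a2 had 884, 749.7 and 768 in K1, K2 and K3, against 967, 1105 and 1145 in C1, C2 and C3. The groups did not overlap, yet the log2 fold change of -0.42 ± 0.17 did not pass (edgeR adjusted p = 0.157). Slc38a4 (SNAT4), an imprinted gene in mice, had 234, 260.2 and 256 CPM in K1, K2 and K3, against 374, 341 and 375 CPM in C1, C2 and C3. It too was lower in every knockout-labelled library without passing (log2 fold change -0.54 ± 0.15, edgeR adjusted p = 0.0560). DESeq2 and limma-voom called it lower (adjusted p = 0.0111 and 0.0479). With replicates 2 and 3 only, edgeR called Slc38a2 and Slc38a4 lower.

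Within a library and per kilobase, the level of Slc38a1 relative to Slc38a2 was 0.132, 0.111 and 0.0860 in K1, K2 and K3, against 0.00813, 0.00343 and 0.00548 in C1, C2 and C3. Slc38a1 therefore remained the minor of these glutamine carriers in every library. Slc38a3 (SNAT3), a glutamine carrier of liver, kidney and astrocytes, had 2.80, 6.28 and 4.32 CPM in K1, K2 and K3, against 0, 0.306 and 0.650 CPM in C1, C2 and C3. The groups did not overlap and the log2 fold change of 3.78 ± 1.02 missed the threshold (edgeR adjusted p = 0.0506). DESeq2 and limma-voom called it higher. In edgeR it was called higher with no count filter, with the replicate block, without C1 and with replicates 2 and 3 only. A filter of 50 counts in 3 libraries gave the same call. Slc38a9, the lysosomal arginine sensor of mTORC1, and Slc38a6, Slc38a7 and Slc38a10 had log2 fold changes of -0.54, -0.37, -0.06 and -0.27 with overlapping groups (edgeR adjusted p = 0.370 to 0.939). With the GC and length offset, edgeR called Slc38a10 lower. Slc38a5, Slc38a8 and Slc38a11 had at most 2 counts in all.

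**Figure D3:**
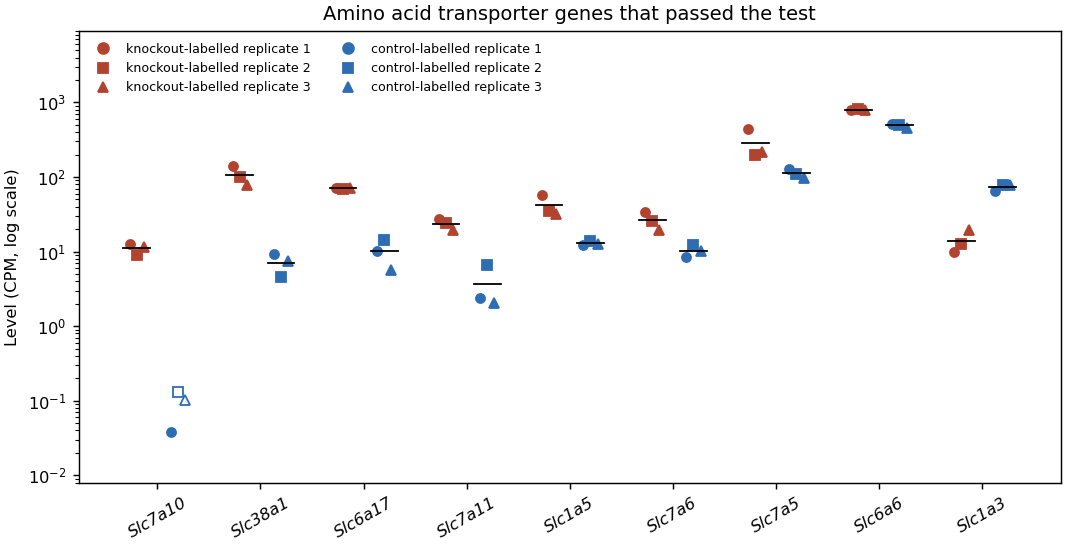
Level in CPM (log scale) of the 9 members that passed the test, by library, with the mean as a line; open symbols stand for 0 counts and are drawn at the level of 3 counts, and no mean is drawn for a group with such a library. In 8 genes every knockout-labelled library lies above every control-labelled one, and in Slc1a3 every one lies below.

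1 Slc1 gene fell and 1 rose. Slc1a3 (GLAST; chromosome 15, 8634124 to 8710764), a glutamate and aspartate transporter of glia that has been used in mouse skin as a marker of activated stem cells, had 9.93, 12.5 and 19.6 CPM in K1, K2 and K3, against 64.6, 79.0 and 77.9 CPM in C1, C2 and C3. All knockout-labelled libraries were below all control-labelled ones. The log2 fold change was -2.40 ± 0.28 (SE, n = 3 per group; edgeR adjusted p = 0.00165), and it stayed between -2.72 and -2.20 in every alternative run. The basal marker Trp63 was also lower, at 1140, 939 and 969 CPM in K1, K2 and K3, against 1729, 1760.1 and 1790.2 CPM in C1, C2 and C3 (edgeR adjusted p = 0.0176, lost without C2, C3, K2 or K3 at 0.0683 to 0.0880). Of the 9 basal markers edgeR called 2 lower and 0 higher, and DESeq2 3 lower and 1 higher. Epcam was higher without passing (log2 fold change 0.95 ± 0.27, edgeR adjusted p = 0.0598). The part of Trp63 in the fall of Slc1a3 was not tested. In these bulk libraries, fewer cells expressing a gene and less RNA per cell cannot be told apart. The other glutamate transporters Slc1a1, Slc1a2, Slc1a6 and Slc1a7 fell below the count filter, with 1 to 35 counts in all, and none was called without it.

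Slc1a5 (ASCT2; chromosome 7, 16781340 to 16798274), a neutral exchanger that imports glutamine, had 57.6, 34.9 and 32.3 CPM in K1, K2 and K3, against 12.3, 13.7 and 12.7 CPM in C1, C2 and C3. The control-labelled libraries lay close together and every knockout-labelled one was above them. The log2 fold change was 1.69 ± 0.27 (edgeR adjusted p = 0.00611), and the call held without any 1 library. Its paralog Slc1a4 (ASCT1), which carries alanine, serine and cysteine, had 72.7, 110.0 and 93.0 CPM in K1, K2 and K3, against 105, 127 and 125 CPM in C1, C2 and C3. Those groups overlapped (log2 fold change -0.37 ± 0.20, edgeR adjusted p = 0.302). The level of Slc1a5 relative to Slc1a4, per kilobase, was 1.11, 0.443 and 0.486 in K1, K2 and K3, against 0.165, 0.151 and 0.143 in C1, C2 and C3, which puts Slc1a5 above its paralog in K1 alone.

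In Slc6 a vesicular carrier and the taurine carrier rose. Slc6a17 (NTT4; chromosome 3, 107467543 to 107518018), which loads neutral amino acids into synaptic vesicles of neurons, had 71.6, 68.3 and 71.7 CPM in K1, K2 and K3, against 10.1, 14.5 and 5.64 CPM in C1, C2 and C3. The knockout-labelled libraries were nearly equal, and the groups were well apart. The log2 fold change was 2.81 ± 0.33 (edgeR adjusted p = 0.00170), and the call held without any 1 library. Slc6a6, the taurine carrier, had 780.1, 819 and 786 CPM in K1, K2 and K3, against 516, 504 and 459 CPM in C1, C2 and C3. This difference of 0.69 ± 0.15 on the log2 scale passed (edgeR adjusted p = 0.0233) but was lost without C2, C3, K2 or K3 (0.0760 to 0.119).

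Slc6a17 and Slc7a10 are known from the nervous system, and markers of its cells were measured beside them. The summed level of 8 Schwann cell and neuron markers was at most 5.35 CPM in knockout-labelled and at most 8.63 CPM in control-labelled libraries. 5 of them were tested, and edgeR, DESeq2 and limma-voom each called 0, with 0 at an unadjusted p under 0.05 in edgeR. Each of the 8 had some count in each group. Of the 6 Merkel cell markers 3 had enough counts to be tested, and these 3 rose (Krt18, Isl1 and Sox2). Atoh1, Krt8 and Krt20 fell below the count filter. The summed level of the 6 was 27.6 to 77.0 CPM in the knockout-labelled and 0.612 to 2.63 CPM in the control-labelled libraries. Krt18 made up most of it in each knockout-labelled library, and Isl1 and Sox2 had 0 counts in C1, C2 and C3. The Merkel cell factor Atoh1 stayed at 0 to 0.154 CPM in the knockout-labelled and 0 to 0.342 CPM in the control-labelled libraries. The part of Schwann cells, neurons or Merkel cells in the changes of transporters was not tested.

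The other Slc6 members that did not overlap missed the threshold. The creatine carrier Slc6a8 had 139, 168 and 144 CPM in K1, K2 and K3, against 90.6, 109 and 101 CPM in C1, C2 and C3 (log2 fold change 0.59 ± 0.17, edgeR adjusted p = 0.0623). Slc6a14, a broad carrier of neutral and cationic amino acids, had 16.5, 4.94 and 3.80 CPM in K1, K2 and K3, against 1.88, 2.80 and 2.77 CPM in C1, C2 and C3. K1 gave most of its log2 fold change of 1.76 ± 0.60 (edgeR adjusted p = 0.104). The monoamine carriers with enough counts to be tested, Slc6a2 and Slc6a4, had negative fold changes that did not pass. Slc6a2, the noradrenaline carrier, had 0.381, 3.76 and 2.21 CPM in K1, K2 and K3, against 5.93, 18.1 and 12.6 CPM in C1, C2 and C3 (log2 fold change -2.54 ± 0.75, edgeR adjusted p = 0.0678). Slc6a4, the serotonin carrier, had 7.30, 10.1 and 15.3 CPM in K1, K2 and K3, against 28.5, 22.6 and 16.6 CPM in C1, C2 and C3 (log2 fold change -1.05 ± 0.34, edgeR adjusted p = 0.0908). The DESeq2 test called these 2 lower and Slc6a8 and Slc6a14 higher. Other edgeR settings called Slc6a2 lower: no count filter, the replicate block, the GC and length offset, and replicates 2 and 3 only. Slc6a4 was called lower with the offset, and Slc6a8 higher without K1 and with replicates 2 and 3 only.

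Slc6a3, the dopamine carrier, fell below the count filter, and is singled out after its values were seen. It had 9, 22 and 32 counts in K1, K2 and K3 and 0, 0 and 2 in C1, C2 and C3. With no count filter its log2 fold change of 4.84 ± 1.51 did not pass (edgeR adjusted p = 0.0687). It was called with replicates 2 and 3 only (0.0353) and in no other setting that tested it (0.0501 to 0.144). The glycine carrier Slc6a9 varied widely in each group, with 24.1, 46.5 and 52.7 CPM in K1, K2 and K3 and 15.1, 37.9 and 19.5 CPM in C1, C2 and C3 (edgeR adjusted p = 0.283). The proline carrier Slc6a7 had under 1.2 CPM in every library. Slc6a11, Slc6a12 and Slc6a13, which carry GABA and related molecules, had 16 to 32 counts in all. Slc6a15, Slc6a16, Slc6a19 and Slc6a21 had 1 to 21, and Slc6a5 and Slc6a18 had none.

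No Slc36 or Slc43 member passed in the main edgeR fit. Slc36a1 (PAT1), a proton-driven carrier of lysosome and plasma membrane, had 36.4, 45.6 and 42.0 CPM in K1, K2 and K3, against 34.2, 22.9 and 26.4 CPM in C1, C2 and C3 (log2 fold change 0.57 ± 0.22, edgeR adjusted p = 0.150). Slc36a4 had 33.9, 29.7 and 24.7 CPM in K1, K2 and K3, against 22.8, 21.8 and 20.6 CPM in C1, C2 and C3 (log2 fold change 0.44 ± 0.21, edgeR adjusted p = 0.242). The groups did not overlap in either gene. With replicates 2 and 3 only, edgeR called Slc36a1 higher. Slc36a2 had 0, 0 and 35 counts in K1, K2 and K3 and 0, 27 and 78 in C1, C2 and C3, and Slc36a3 had none.

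Slc43a3 had 9.55, 10.0 and 15.3 CPM in K1, K2 and K3, against 4.01, 5.99 and 4.89 CPM in C1, C2 and C3, a log2 fold change of 1.23 ± 0.34 (edgeR adjusted p = 0.0537). It was called higher by DESeq2 (0.00574), with the GC and length offset (0.0459), without K1 (0.04997) and with replicates 2 and 3 only. Slc43a2 (LAT4), a facilitator of leucine and phenylalanine, had 6.99, 22.3 and 44.0 CPM in K1, K2 and K3, against 14.0, 10.1 and 14.6 CPM in C1, C2 and C3 (edgeR adjusted p = 0.353). K1 was below all control-labelled libraries there, and K2 and K3 were above them. Slc43a2 was called higher without K1 (edgeR adjusted p = 0.0443) and with replicates 2 and 3 only. Slc43a1 (LAT3) had 9.90, 7.88 and 11.9 CPM in K1, K2 and K3 and 10.6, 4.15 and 4.96 CPM in C1, C2 and C3, with overlapping groups.

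Summed over a subfamily, levels were compared per kilobase of transcript and with no test. The Slc6 sum was 187, 206 and 198 CPM per kilobase in K1, K2 and K3, against 125, 134 and 115 in C1, C2 and C3, and Slc6a6 made up most of it. The Slc38 sum was lower in the knockout-labelled libraries, at 235, 222 and 220.2 CPM per kilobase in K1, K2 and K3, against 276, 287 and 299.96 in C1, C2 and C3, although Slc38a1 rose within it. The Slc7 sum was 257, 131 and 122 CPM per kilobase in K1, K2 and K3, against 108, 94.7 and 92.8 in C1, C2 and C3, with K1 far above the others. Over all 61 members the sum was 798, 663 and 655 CPM per kilobase in K1, K2 and K3, against 614, 619 and 612 in C1, C2 and C3. The control-labelled libraries were close to one another and below every knockout-labelled one.

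**Figure D4:**
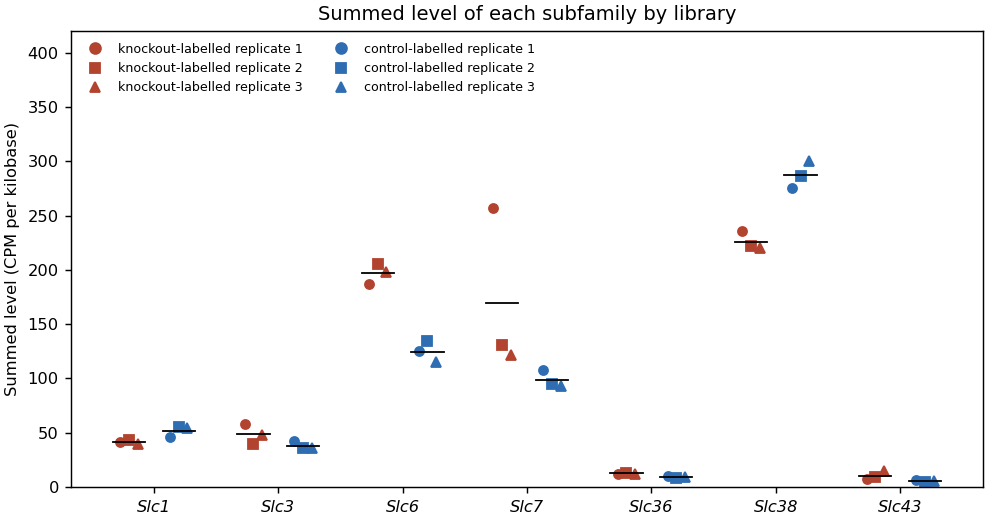
Summed level of each SLC subfamily in CPM per kilobase of the longest annotated transcript, by library, with the mean of each group as a line (n = 3 libraries per group). The Slc6, Slc7, Slc36 and Slc43 sums lie higher in all knockout-labelled libraries, the Slc1 and Slc38 sums lie lower, and the Slc3 sums overlap.

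Genes around transport were read from lists of related function, by counts beside the 10.2% of all tested genes that were called. For counts at an unadjusted p under 0.05, the share of all tested genes is not given here. Of 34 tested genes of mTORC1 amino acid sensing 1 rose and 0 fell. This was Rragd, a Rag GTPase that brings mTORC1 to lysosomes, at 54.3 ± 12.9 CPM in knockout-labelled and 17.9 ± 6.67 CPM in control-labelled libraries (SD, n = 3; edgeR adjusted p = 0.0153), a call lost without K2 (0.0618). The median log2 fold change of this list was 0.11.

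Of 25 tested genes of the amino acid response driven by ATF4, 2 rose and 0 fell, with a median log2 fold change of 0.39. Shmt2, a mitochondrial enzyme of serine use, was at 178 ± 12.5 CPM in knockout-labelled and 96.6 ± 11.5 CPM in control-labelled libraries (edgeR adjusted p = 0.0131). Stc2, a secreted glycoprotein, was at 7.56 ± 3.87 CPM in knockout-labelled and 0.991 ± 0.706 CPM in control-labelled libraries (edgeR adjusted p = 0.0335). These calls were lost without C3, K2 or K3 for Shmt2 and without C1, C2, K2 or K3 for Stc2. Atf4 itself and Asns, a textbook target, did not pass (edgeR adjusted p = 0.328 and 0.321). DESeq2 called 4 genes of this list higher and 0 lower, and limma-voom 1 and 0. At an unadjusted p under 0.05 in edgeR, 5 were higher and 1 lower. Only RNA was measured here, and the activity of the ATF4 protein was not tested.

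Of 18 tested genes of glutathione synthesis and cystine use edgeR called 0, with a median log2 fold change of 0.37. At an unadjusted p under 0.05 in edgeR, 2 were higher (Gclc and Srxn1) and 2 lower (Gsr and Cbs). DESeq2 and limma-voom each called 1 higher. Gpx1, a glutathione peroxidase with the highest level of the list, averaged 204 CPM in knockout-labelled and 266 CPM in control-labelled libraries (edgeR adjusted p = 0.548). Nfe2l2, the factor that drives Slc7a11 under oxidative stress, did not pass either (edgeR adjusted p = 0.411). Only its RNA was measured, and its part in the rise of Slc7a11 was not tested.

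Of 18 tested genes that make or use glutamate, glutamine, GABA and glycine, 3 rose and 1 fell. Abat, which breaks down GABA, had 18.5, 33.8 and 29.6 CPM in K1, K2 and K3, against 4.01, 1.62 and 1.13 CPM in C1, C2 and C3 (edgeR adjusted p = 0.00385), a call that held without any 1 library. Gldc, of the glycine cleavage system, was at 8.04 ± 2.53 CPM in knockout-labelled and 0.326 ± 0.478 CPM in control-labelled libraries (edgeR adjusted p = 0.0287). Got1, a glutamate and aspartate transaminase, was at 37.1 ± 3.47 CPM in knockout-labelled and 16.9 ± 2.29 CPM in control-labelled libraries (edgeR adjusted p = 0.0114). Oat, which turns ornithine towards glutamate, fell to 73.7 ± 22.7 CPM in knockout-labelled libraries, against 156 ± 13.2 CPM in control-labelled ones (edgeR adjusted p = 0.0277). The calls were lost without C3, K2 or K3 for Gldc, without C3 for Got1 and without C2, C3 or K2 for Oat.

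Of 15 tested amino acid carriers outside these subfamilies 2 rose and 1 fell. Slc32a1, which loads GABA and glycine into vesicles, was not counted in any control-labelled library and was at least 52.8-fold higher in the knockout-labelled libraries, taking 3 counts for the 3 libraries together as the floor (0.796, 2.27 and 2.99 CPM in K1, K2 and K3; edgeR adjusted p = 0.0118). Slc25a12, a mitochondrial aspartate and glutamate carrier, was at 30.5 ± 4.74 CPM in knockout-labelled and 16.1 ± 1.33 CPM in control-labelled libraries (edgeR adjusted p = 0.0306), a call lost without C1, C2, C3, K2 or K3. Slc16a10, a carrier of aromatic amino acids, fell to 20.3 ± 6.87 CPM in knockout-labelled libraries, against 55.3 ± 4.17 CPM in control-labelled ones (edgeR adjusted p = 0.0107, and 0.0505 without K2).

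The calls of the members depended in part on the libraries. 5 of the 8 higher calls and that of Slc1a3 held without any 1 library. With replicates 1 and 2 only, which leaves out the pair whose Ring1 went against its labels, 3 members were called higher (Slc38a1, Slc6a17 and Slc7a10) and Slc1a3 lower. In those 4 libraries Xist and Ddx3y split fully by label, so label and sex cannot be told apart there. Slc1a5 and Slc7a11 missed the threshold there (edgeR adjusted p = 0.0504 and 0.0571).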

How the data were processed

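RNA was measured in 6 libraries of sorted newborn mouse epidermis. Per the labels' protocols, cDNA was made and amplified from small amounts of total RNA (Ovation system, Nugen), sheared by sonication, and read on 1 end only. The authors deposited raw counts per gene symbol for each library. The submitters' processing notes name, without roles, HTSeq 0.6.1, DESeq2 1.6.3, TopHat2 2.0.13, Cufflinks 2.2.1 and mm10. Annotation and strandedness are not given in the sources used here. 22 of the 61 members overlap a gene on the other strand. The values of 1 member are not reported here.

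Groups came from the sample titles. edgeR 4.0.16 in R 4.3.3 was fitted to all genes with TMM factors (0.927 to 1.04), filterByExpr (minimum count 10, minimum total 15), a prior count of 0.125 and no covariate, with two-sided tests adjusted by the Benjamini-Hochberg method over 14890 genes. The common biological coefficient of variation was 38.3%. The model's SE is the log2 fold change divided by the root of its F statistic. The pipeline was tested on simulated counts. No 2 libraries were copies (chi-square per degree of freedom at least 30.5). Values in every library are given for members that were called, the 2 with the highest mean CPM of each subfamily, both heavy chains, and non-overlapping members with a log2 fold change of at least 1 either way. Other members given in full were chosen after their values were seen. From each pathway list up to 4 called genes are named, or the gene with the highest mean where none was called, and Atf4, Asns and Nfe2l2 were added. The members and lists were chosen with earlier results of these data known. Positions and transcript lengths are from GENCODE M21 (GRCm38), and promoters from RefSeq. Alternatives used DESeq2 1.42.0, limma 3.58.1 and other settings named in the closing section. DESeq2 left 14 genes without an adjusted p. Figures used matplotlib 3.10.9.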

Additional observations from a re-analysis of the deposited data

How the results depend on the processing

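Under size factors of DESeq2, library size alone and removal of the 20 most counted genes, the same 9 members were called. Of the 8 members called higher, 5 remained with a minimum of 1.5-fold and 5 with Xist as a covariate (without Slc6a6, Slc7a5 and Slc7a6 in each case), and 3 with replicates 1 and 2 only. When 1 library was left out, 5 to 11 members were called higher (5 without C3, 11 without K1). With replicates 2 and 3 only, a setting chosen after seeing the data, 15 were called higher and 4 lower. Beside 1 lower member, 2 were called lower with no count filter, 2 with limma-voom, 2 with the replicate block, 4 with the DESeq2 test and 4 with an offset for GC and length. The offset gave all genes a median log2 fold change of -0.14 and called 7 members higher, without Slc6a6 and Slc7a5. Without 1 library, 1 member was lower each time. Same-numbered libraries deviated together with correlations of 0.19, 0.27 and 0.07, which do not show pairing. The block called 9 members higher.

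Over all genes, 1068 higher and 444 lower calls became 1639 and 896 with the DESeq2 test, 354 and 85 with replicates 1 and 2 only, 636 and 174 with the Xist level, and 1633 and 1061 with replicates 2 and 3 only. The lower calls became 162 with the 1.5-fold minimum and 919 with the offset, beside 729 and 885 higher calls. All-gene calls were 1204 higher and 533 lower with no count filter, which tested 19884 genes. They were 1094 and 479 with limma-voom, and 1016 and 435 with the replicate block. Without 1 library, 630 to 957 were higher and 174 to 436 lower. The log2 fold change of Slc7a1, which did not pass, changed sign and was -0.40 without K1, in a range of -0.40 to 0.47 when 1 library was left out, -0.21 with the Xist level, -0.17 with the offset and -0.38 with replicates 2 and 3 only. Slc6a7, Slc7a4, Slc7a7, Slc7a8, Slc38a6 and Slc38a7, which did not pass either, also changed sign in at least 1 fit with 1 library left out. The causes were not tested. With no count filter the 18 counted members below it were tested too, and edgeR called 0 of them (lowest adjusted p = 0.0687).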

Other observations

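Slc6a20a and Slc6a20b, proline carriers whose symbols end in a letter and so fell outside the naming rule, did not pass. Slc6a20a had 0.208, 0.309 and 2.44 CPM in K1, K2 and K3, against 0, 0.568 and 0.513 CPM in C1, C2 and C3 (edgeR adjusted p = 0.561). Slc6a20b had 0.312, 1.39 and 1.53 CPM in K1, K2 and K3, against 0.300, 4.06 and 2.46 CPM in C1, C2 and C3 (edgeR adjusted p = 0.543).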
